A study of Homo sapiens with 16 samples.

Results

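The S100 calcium-binding proteins were followed in SUM-225 breast cancer cells, written SUM225 hereafter, during exposure to an inhibitor of the HER2 kinase. The members are 10 genes, S100A2, S100A4, S100A6, S100A7, S100A8, S100A9, S100A10, S100A11, S100A14 and S100P, and every probe that the deposited table pairs with one of these symbols was used. They are 10 of the 18631 symbols and 11 of the 24526 probes on the array, with a pair of probes for S100A4 and 1 probe for each of the other genes. SUM225 is an established human cell line in which HER2, the product of ERBB2, is amplified and over expressed, and per the labels it was grown in Ham's F-12 medium with fetal bovine serum, insulin and hydrocortisone, whereas the study's methods describe a serum-free medium for this line. All cultures received 1 µM CP724,714, a small molecule that blocks the kinase activity of HER2. At steps of 3 h, beginning at 0 h and ending at 45 h, RNA was taken from a separate dish and read on a bead array from Illumina, so that 16 arrays cover 16 time points with no replicate. A course without the inhibitor was not analysed here, and time in culture and the inhibitor therefore cannot be told apart.

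S100 proteins are small proteins with a pair of calcium-binding EF-hand loops, and most of them work as dimers that change shape when calcium is bound and then grip a target protein. Inside epithelial cells they bind annexins, myosin and ezrin. Several are also released and act on receptors such as RAGE and TLR4. Most S100 genes lie together on chromosome 1 beside the epidermal differentiation complex, the group of genes that builds the outer layer of skin, and several of them are switched on in stressed keratinocytes and in carcinomas.

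The cells carried epithelial transcripts, since all 8 markers of luminal and HER2-amplified epithelium (KRT8, KRT18, KRT19, TACSTD1, CDH1, GATA3, ERBB2 and GRB7) had a detection p-value under 0.05 on each of the 16 arrays. S100A8 and S100A9 are best known from myeloid cells. Of 8 myeloid markers, PTPRC, ITGAM, MPO and FCN1 were detected on 0 arrays and CSF1R on 2, while CD14, FCGR3B and LYZ were detected on all 16. Of 6 fibroblast markers, COL3A1, DCN, LUM and PDGFRB were detected on 0 arrays, and COL1A1 and COL1A2 on 5 each. Median signal ranged from 242 to 384 over the arrays, between 57.5% and 61.5% of the probes were detected, and the brightest probe of each array read between 71727 and 74152. Precision is limited by how many arrays there are.

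Of the members, 5 share a promoter feature that the choice of genes did not use. RefSeq promoter windows of 300 bases (250 before and 50 after a transcription start, GRCh38.p14) were found for 10 of the 10 genes, in 13 windows because S100A8 has 3 starts and S100A2 has 2. The TATA box letters TATAAA, searched on both strands, were present for 5 of the 10 genes (S100A4, S100A7, S100A8, S100A9 and S100P) which is 6 of the 13 windows, and in 11.5% of the 35116 windows of the table. In each of these 5 genes a match began between 28 and 31 bases before a start, and the upstream window of another S100A8 start held the same box at 126 bases. The 100 bases before these starts are shown, 5′ to 3′ on the strand of the gene, to let the position of the box, in capitals, be compared between genes whose courses differed.
S100A9 (chr1:153357754-153357853, plus strand): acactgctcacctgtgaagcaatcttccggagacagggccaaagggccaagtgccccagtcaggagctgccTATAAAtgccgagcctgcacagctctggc
S100A8 (chr1:153391074-153391173, minus strand): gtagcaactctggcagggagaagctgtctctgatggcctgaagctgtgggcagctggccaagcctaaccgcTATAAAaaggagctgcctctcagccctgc
S100A7 (chr1:153460652-153460751, minus strand): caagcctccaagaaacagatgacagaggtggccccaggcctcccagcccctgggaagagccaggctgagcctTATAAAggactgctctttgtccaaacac
S100A4 (chr1:153545807-153545906, minus strand): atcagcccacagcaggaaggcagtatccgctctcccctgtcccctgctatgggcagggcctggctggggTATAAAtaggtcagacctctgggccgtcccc
S100P (chr4:6693778-6693877, plus strand): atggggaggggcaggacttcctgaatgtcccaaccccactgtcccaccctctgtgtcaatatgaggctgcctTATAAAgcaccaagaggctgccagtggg

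The AP-1 letters TGANTCA, searched on both strands, were present for 1 gene, S100A2, and in 7.71% of all windows. The match began 52 bases before 1 of the 2 S100A2 starts and is shown in capitals because S100A2 was among the 3 members with the largest falls.
S100A2 (chr1:153565845-153565944, minus strand): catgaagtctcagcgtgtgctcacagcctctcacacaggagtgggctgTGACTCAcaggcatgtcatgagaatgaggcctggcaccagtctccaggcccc

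The C/EBP letters TTGCNNAA were present for 1 gene, S100A11, against 10.5% of all windows, and the STAT letters TTCNNNGAA for 0 genes against 7.66%. No match of one motif overlapped a match of another motif. A match is a run of letters in these windows and not a measured binding site.

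Across the members, 5 probes fell, 2 rose and 4 had no linear trend over the 45 h. The test was that of the linear term of a cubic course fitted to log2 signals with limma, with Benjamini-Hochberg adjustment over 16110 probes that were detected on at least 3 arrays, and all 11 S100 probes were detected on all 16. With no replicate at any time, errors and p-values measure only the scatter of arrays around the fitted course. Of all tested probes 26.0% rose and 21.7% fell, and whether the S100 split of 5 falling and 2 rising differs from that was not tested. Dependence on time in any smooth form was found for 7 of the 11 probes, against 51.3% of all probes. These 7 include probe ILMN_1688780 of S100A4, which had no linear trend, and leave out S100A10, which fell. From a straight line 4 departed, against 19.3%. The median size of the linear change, without its sign, was 0.38 log2 units for the S100 probes and 0.37 for all probes tested.

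**Figure D1:**
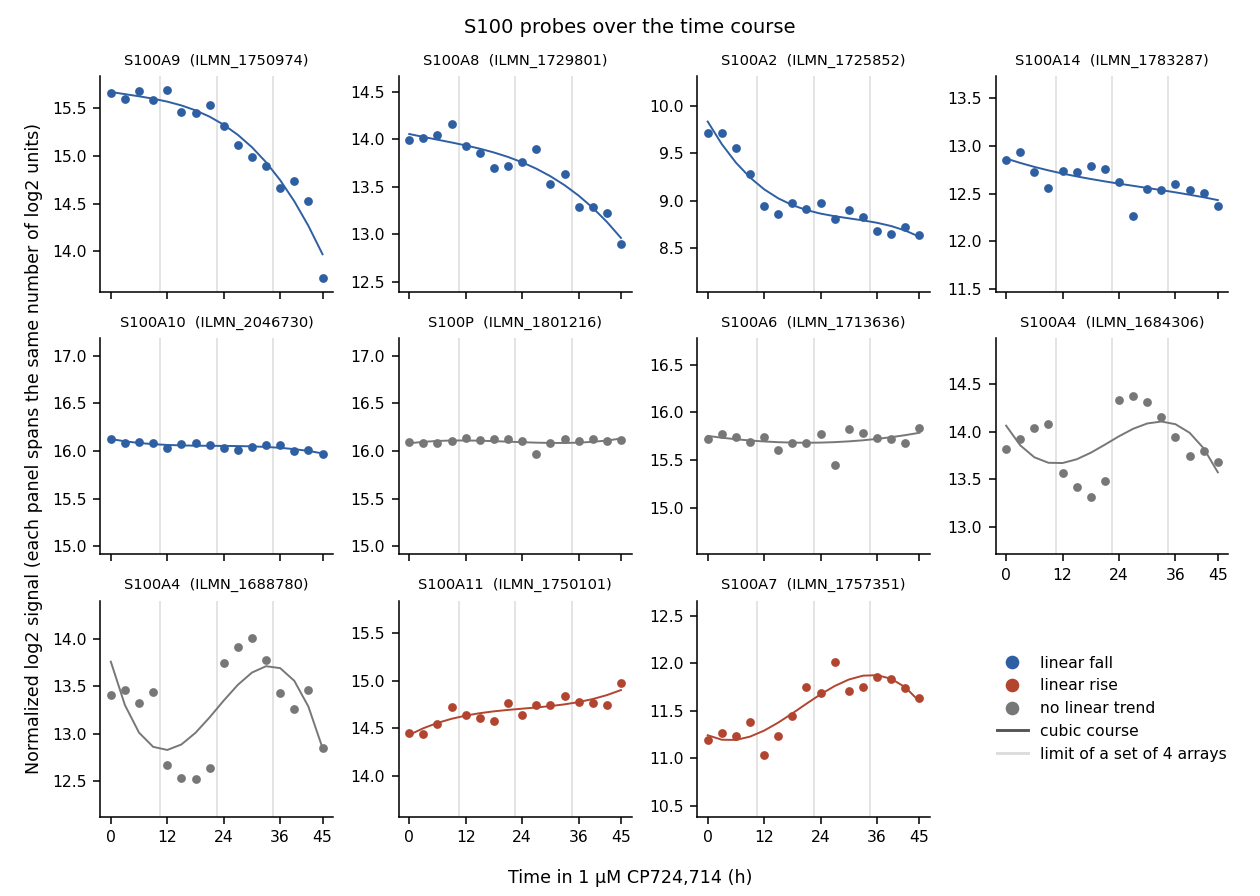
Normalized log2 signal (vertical axis) of the 11 S100 probes against hours in 1 µM CP724,714, 1 point per array, with the fitted cubic course as a line, and every panel spanning the same number of log2 units. S100A9, S100A8 and S100A2 fell, from 15.66, 13.99 and 9.71 at 0 h to 13.72, 12.90 and 8.64 at 45 h, S100A7 rose, and both S100A4 probes moved in blocks of 4 arrays.

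S100A8 and S100A9, which pair to form calprotectin, both fell, S100A9 mostly after 21 h. The normalized log2 signal of S100A9 was 15.66, 15.60, 15.68 and 15.59 at 0, 3, 6 and 9 h and 15.69, 15.47, 15.45 and 15.53 at 12, 15, 18 and 21 h. It was 15.31, 15.11, 14.99 and 14.89 at 24, 27, 30 and 33 h and 14.67, 14.74, 14.52 and 13.72 at 36, 39, 42 and 45 h. Every value from 24 h on lay below every value before it, and the last array was the lowest. The limit at 24 h was chosen after the values were seen and falls between blocks of 4 consecutive arrays. The linear change was -1.56 ± 0.10 log2 units over 45 h (SE, n = 16 arrays, adjusted p = 4.14e-10 in limma), and its curvature passed too (adjusted p = 0.00133). The 0 h signal was 3.83-fold that at 45 h and 2.20-fold that at 42 h, since the last step alone was -0.80 log2 units. The curvature held with each of the 16 arrays left out in turn, with a highest adjusted p of 0.00515, and the linear change then lay between -1.69 and -1.28.

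S100A8 followed a course like that of its partner. Its log2 signal was 13.99, 14.01, 14.04 and 14.16 from 0 to 9 h, 13.92, 13.85, 13.70 and 13.72 from 12 to 21 h, 13.76, 13.89, 13.52 and 13.63 from 24 to 33 h, and 13.29, 13.29, 13.23 and 12.90 from 36 to 45 h. The 4 lowest values are the last 4 arrays, and the highest was at 9 h. The linear change was -1.01 ± 0.09 (SE, n = 16, adjusted p = 3.30e-08 in limma), with 2.13-fold more signal at 0 h than at 45 h. Departure from a straight line missed the threshold (adjusted p = 0.0532). Over the 16 arrays the log2 courses of S100A8 and S100A9 had a Pearson r of 0.934, which is a description of values read from the same arrays.

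The raw signal of S100A9 is part of the account, because the probe was bright. It read between 43126 and 58755 on the first 8 arrays, which was up to 81.8% of the brightest probe on the same array, and 10808 on the last, which was 15.1%. Bead arrays lose proportion near the top of their range, and the part of this in the early values of S100A9 was not tested. S100A8 stayed further from the top, at 8.63% to 31.3% of the brightest probe. Before normalization the 0 h signal was 4.88-fold that at 45 h for S100A9 and 2.63-fold for S100A8.

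S100A2, a mostly nuclear member of basal epithelium, fell early and then stayed low. Its log2 signal was 9.71, 9.71, 9.56 and 9.29 from 0 to 9 h and 8.94 at 12 h, and from then on it lay between 8.64 and 8.98. The values from 12 h on did not overlap those before it. This limit too was chosen after the values were seen and falls between blocks of 4 arrays. The linear change was -0.999 ± 0.11 (SE, n = 16, adjusted p = 6.59e-07 in limma) and the curvature passed as well (adjusted p = 0.0366), although it did so in only 9 of the 16 fits with 1 array left out, with a highest adjusted p of 0.0872. Means of 4 arrays were 9.57 ± 0.20 from 0 to 9 h, 8.93 ± 0.05 from 12 to 21 h, 8.88 ± 0.08 from 24 to 33 h and 8.68 ± 0.04 from 36 to 45 h (SD over time points, n = 4). Raw signals of this probe lay between 463 and 937, at most 1.27% of the brightest probe of the array.

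S100A14, an epithelial member found at the cell membrane, fell by a smaller amount. Its log2 signal was lowest at 27 h with 12.27, had a median of 12.61 and was highest at 3 h with 12.93. The linear change was -0.41 ± 0.10 (SE, n = 16, adjusted p = 0.00243 in limma). The 27 h and 9 h arrays (12.27 and 12.56) lay below their neighbours, so the decline was not even. With a step between 21 and 24 h as a further term the linear change was 0.11 (adjusted p = 0.789).

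S100A10, also called p11, is the partner of annexin A2 and differs from its family in that its loops no longer bind calcium. Its linear change was -0.11 ± 0.04 log2 units (SE, n = 16, adjusted p = 0.0295 in limma), from 16.13 at 0 h to 15.97 at 45 h. Dependence on time in any smooth form did not pass (adjusted p = 0.106 in limma). The probe sat at 79.4% to 97.3% of the brightest signal of its array. Median scaling in place of quantile normalization gave -0.25 with an adjusted p of 0.208, and leaving out the 0, 3, 6, 39 or 45 h array in turn gave adjusted p-values between 0.0505 and 0.0834, so that the call of this small fall hangs on the setting and on single arrays.

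**Figure D2:**
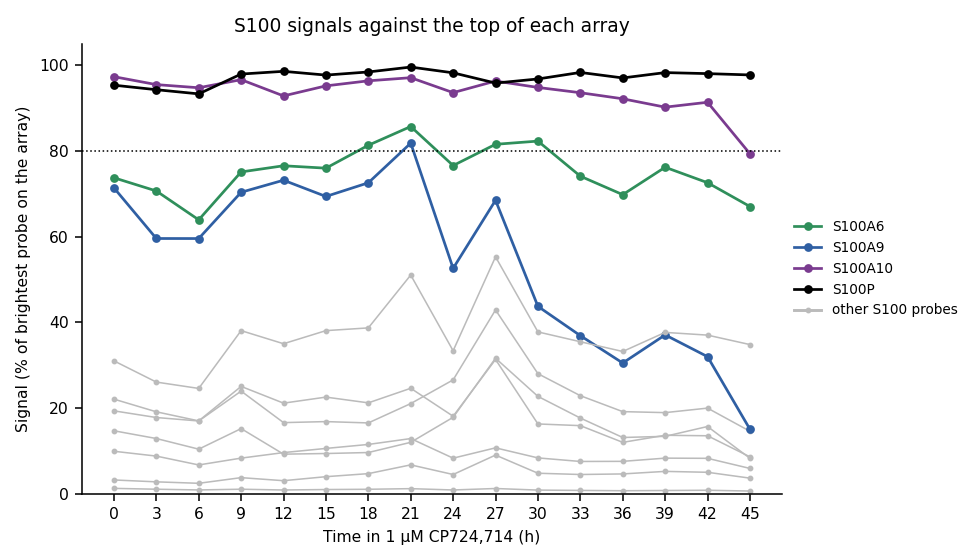
Signal of each S100 probe as a percentage of the brightest probe on the same array (vertical axis) against hours in the inhibitor, with a dotted line at 80%. S100P stayed between 93.3% and 99.6%, S100A10 between 79.4% and 97.3% and S100A6 between 63.9% and 85.7%, while S100A9 went from 71.4% at 0 h to 15.1% at 45 h.

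S100A7, or psoriasin, an antimicrobial protein of inflamed skin that is also made by breast carcinomas, rose over the 45 h, unlike S100A8 and S100A9. Its log2 signal was 11.19, 11.26, 11.24 and 11.39 from 0 to 9 h, 11.03, 11.24, 11.45 and 11.75 from 12 to 21 h, 11.69, 12.01, 11.71 and 11.75 from 24 to 33 h, and 11.86, 11.83, 11.74 and 11.64 from 36 to 45 h. All values from 21 h on were above all values before it, at a limit chosen after the values were seen. The linear change was 0.72 ± 0.11 (SE, n = 16, adjusted p = 3.16e-05 in limma). The curvature was close to the threshold (adjusted p = 0.0488) and passed it in 4 of the 16 fits with 1 array left out. With the step term at 24 h the linear change was 0.64 and no longer passed (adjusted p = 0.140).

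S100A11, a partner of annexin A1 that is abundant in epithelium, rose by less. Its log2 signal was lowest at 3 h with 14.44, had a median of 14.73 and was highest at 45 h with 14.98. The linear change was 0.38 ± 0.07 (SE, n = 16, adjusted p = 7.80e-05 in limma), and the value at 45 h was 1.44-fold that at 0 h. Median scaling gave 0.23 (adjusted p = 0.0309), and the step term at 24 h 0.39 (adjusted p = 0.116).

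S100A4, the member named for metastasis and a ligand of non-muscle myosin, had no linear trend by either probe but moved in steps. Probe ILMN_1684306 read 13.81, 13.92, 14.04 and 14.08 from 0 to 9 h, 13.56, 13.42, 13.31 and 13.48 from 12 to 21 h, 14.33, 14.38, 14.31 and 14.15 from 24 to 33 h, and 13.94, 13.74, 13.80 and 13.68 from 36 to 45 h. Probe ILMN_1688780 read 13.40, 13.46, 13.33 and 13.44, then 12.67, 12.53, 12.52 and 12.64, then 13.74, 13.91, 14.002 and 13.78, and last 13.43, 13.26, 13.46 and 12.85 over the same times. In both probes each block of 4 arrays lay apart from the next. The signals of the probes dropped by 0.52 and 0.76 log2 units between 9 and 12 h, and the step between 21 and 24 h was 0.85 and 1.10. Within a block no step of ILMN_1684306 was larger than 0.20, and the largest of ILMN_1688780, 0.61, was the last step of the course, which the other probe did not share (-0.12).

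Linear changes of S100A4 were 0.10 ± 0.21 (adjusted p = 0.729) and 0.25 ± 0.26 (adjusted p = 0.465) in limma (SE, n = 16 each), for ILMN_1684306 and ILMN_1688780. ILMN_1688780 depended on time (adjusted p = 0.0161) and ILMN_1684306 did not pass (adjusted p = 0.170). With a step term at 24 h the linear changes turned to -1.75 (adjusted p = 1.88e-04) and -1.94 (adjusted p = 0.00156). These are linear terms beside the step and not net changes, since the log2 signals at 45 h differed from those at 0 h by -0.14 and -0.55. A smooth cubic follows blocks poorly, as the residual SDs of 0.32 and 0.40 log2 units show beside a median of 0.19 over all probes. Between the probes the courses had a Pearson r of 0.949 over 16 arrays, yet their difference depended on time (adjusted p = 0.0195 over 3819 pairs of probes of one gene, of which 17.8% passed). That call held with each array left out in turn, with adjusted p-values between 0.0158 and 0.0461. Where each probe lies in the S100A4 transcript was not analysed here.

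The blocks of 4 consecutive arrays were seen in these data and are not named in the labels. The block was then entered as a factor beside a straight line in hours. With it, 0 of the 11 S100 probes passed in limma, against 0.900% of all probes. All 7 probes that had risen or fallen kept their sign, S100A10 with only -0.06 ± 0.17 (SE, n = 16, adjusted p = 0.909 in limma). S100A9 then changed by -1.88 ± 0.57 (adjusted p = 0.124) and S100A11 by 0.90 ± 0.26 (adjusted p = 0.108; SE, n = 16 in both fits). S100A9 and S100A2 ended lower than they began in 4 of 4 blocks, and S100A11 ended higher in 4 of 4. S100A8 and S100A14 ended lower in 3 of 4, S100A7 ended higher in 3 of 4, and S100A10 ended lower in 2 of 4. How often probes over the whole array keep their sign, or end so in their blocks, was not computed. The slope within blocks rests on spans of 9 h, and how far the blocks enter the levels of the other members was not tested.

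**Figure D3:**
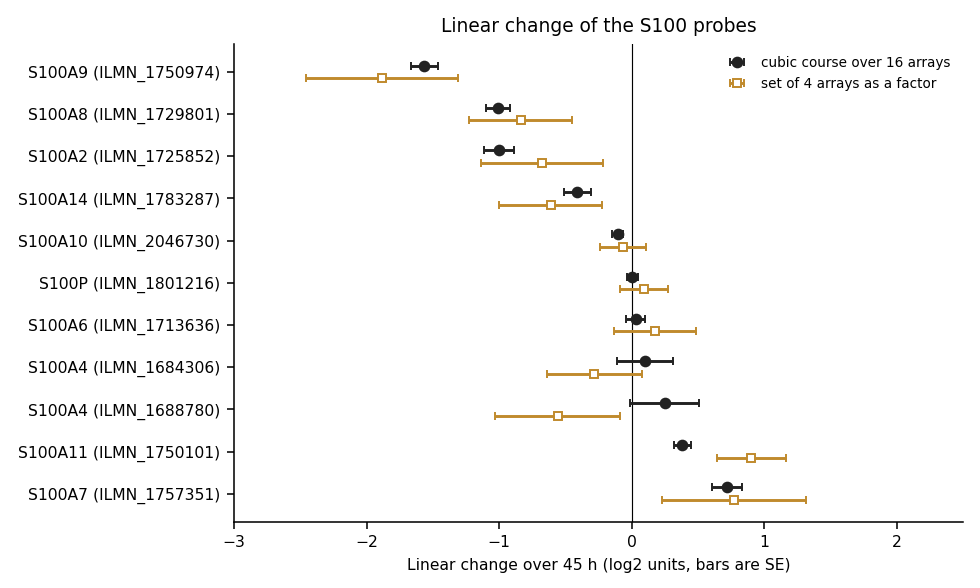
Linear change over 45 h in log2 units (horizontal axis, bars are SE) of each S100 probe from the cubic course over 16 arrays (filled circles) and with the block of 4 consecutive arrays as a factor (open squares). The sign of the 7 probes that rose or fell is the same in both, the error is wider with the factor (S100A9 -1.56 ± 0.10 and -1.88 ± 0.57), and both S100A4 probes lie on the other side of 0 with it (-0.28 ± 0.36 and -0.56 ± 0.47).

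S100P and S100A6 had no trend, but both were close to the top of the range. S100P, which binds ezrin and RAGE and was first found in placenta, stayed within 1.12-fold, from 15.97 at 27 h to 16.13 at 12 h, at 93.3% to 99.6% of the brightest signal. Its linear change was 0.01 ± 0.04 (SE, n = 16, adjusted p = 0.926 in limma). S100A6, or calcyclin, stayed within 1.30-fold, from 15.45 at 27 h to 15.84 at 45 h, with a linear change of 0.03 ± 0.07 (SE, n = 16, adjusted p = 0.759). A probe in this range can hide a change, and the absence of a trend in S100P, S100A6 and, to its small fall, S100A10 is limited by that. With median scaling the values were -0.07 for S100P and -0.10 for S100A6, neither past the threshold.

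Raw signals of several members were highest on a single array. S100A7, S100A8, S100A11 and both probes of S100A4 had their highest raw signal at 27 h, on the array with the highest median signal (384), with 6573, 22799, 40219, 31205 and 23012. After normalization 27 h was the highest point for S100A7 and for probe ILMN_1684306 of S100A4, and not for the other 3 of these 5 probes. It was the lowest array for S100A6, S100A14 and S100P.

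Among themselves the members that fell and those that rose had courses of opposite direction. Over the 16 arrays S100A2 had a Pearson r of 0.741 with S100A8 and 0.689 with S100A9, while S100A7 had -0.665 with S100A2, -0.574 with S100A8 and -0.610 with S100A9. S100A11 had 0.681 with S100A7 and -0.796 with S100A9. The S100A4 probes (ILMN_1684306 and ILMN_1688780) had 0.105 and 0.103 against S100A2. They had 0.399 and 0.451 against S100A7, and -0.590 and -0.554 against S100P. All of these describe courses read from the same arrays, and any pair of trends in time gives a high r of one sign or the other.

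In the order of the genes on chromosome 1 (RefSeq, GRCh38.p14), S100A10, which fell, and S100A11, which rose, come first, followed after the epidermal differentiation genes by S100A9, S100A12, S100A8, S100A7A, S100A7, S100A6, S100A5, S100A4, S100A3, S100A2, S100A16, S100A14, S100A13 and S100A1, while S100P lies on chromosome 4. S100A9 and S100A8 fell, S100A7 rose, S100A6 and S100A4 had no linear trend, and S100A2 and S100A14 fell. S100A7A, next to S100A7 and named S100A7L1 on the array, had no linear trend (0.14 ± 0.28, adjusted p = 0.714 in limma). It did depend on time in a smooth form (adjusted p = 0.00723 in limma), with log2 signals between 5.84 and 7.52. The other S100 genes on the array add to this. Of 11 listed genes (S100PBP, which encodes a protein that binds S100P, among them) 7 were tested, 0 rose and 2 fell in limma, and 3 of the 7 depended on time. With the brightest probe of each gene, 27.0% of the 13107 genes tested over the table rose, 22.0% fell and 52.8% depended on time, and the counts of the gene lists were not tested against these shares. S100A3, a cysteine-rich member of hair cuticle, fell by 1.95 ± 0.28 log2 units (SE, n = 16, adjusted p = 9.40e-06), and S100A16, a partner of S100A14, by 0.91 ± 0.09 (adjusted p = 9.10e-08). The log2 signal of S100A3 went from 8.18 at 0 h to 6.25 at 45 h, with detection on 15 of 16 arrays. With the block of arrays as a factor neither passed, with -1.03 for S100A3 (adjusted p = 0.557 in limma) and -1.36 for S100A16 (adjusted p = 0.128).

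S100A3, S100A2, S100A16 and S100A14 stand next to each other in this order and all 4 fell, which was noticed after the values were seen. S100A13, beyond it, has 6 probes, of which the brightest changed by 0.05 ± 0.08 (adjusted p = 0.667), while a dim one rose by 0.62 ± 0.12 (adjusted p = 2.76e-04). S100A12, which lies between S100A9 and S100A8 and is the third calgranulin of myeloid cells, was detected on 0 arrays, as were S100B, S100G and S100Z.

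**Figure D4:**
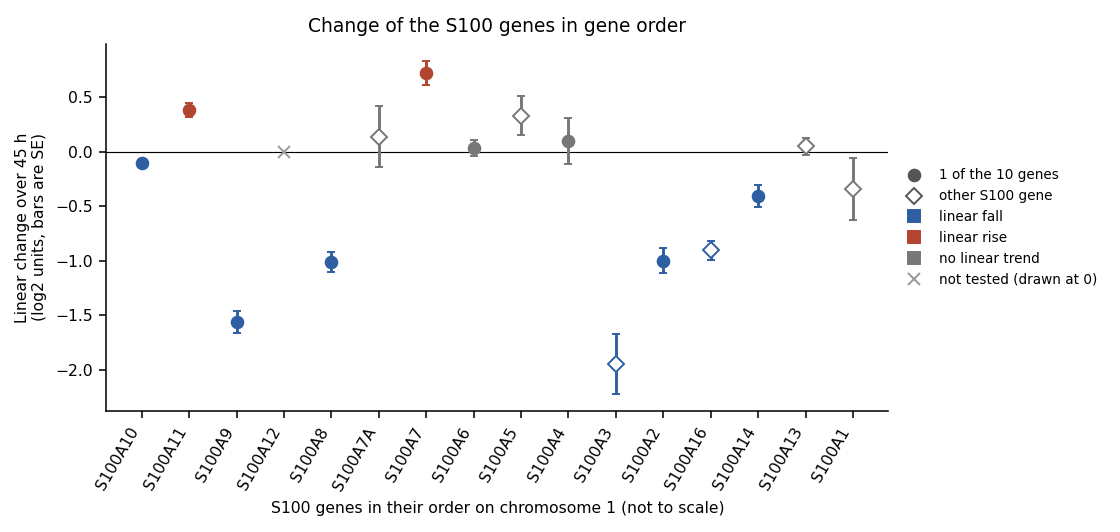
Linear change over 45 h in log2 units (vertical axis, bars are SE) of the brightest probe of each S100 gene, placed in the order of the genes on chromosome 1 and not to scale, with filled circles for the members and open diamonds for other S100 genes. S100A9 and S100A8 (-1.56 and -1.01) and the run from S100A3 to S100A14 (-1.95, -0.999, -0.91 and -0.41) lie below 0, and S100A7 and S100A11 (0.72 and 0.38) above it.

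Of 13 listed genes for proteins that S100 members bind inside the cell, 12 were tested, 4 rose and 3 fell, beside 27.0% and 22.0% of all genes, with a median linear change of -0.09 log2 units against 0.06 over all genes. Those that fell were MYH9 (-0.58 ± 0.07, SE, n = 16), the myosin heavy chain bound by S100A4, CACYBP (-0.91 ± 0.20), the calcyclin-binding protein of S100A6, and ANXA1 (-0.68 ± 0.10), the annexin bound by S100A11. With the block of arrays as a factor the adjusted p-values of the 12 in limma ran from 0.0975 to 0.889.

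Those that rose were AHNAK (0.65 ± 0.17), a very large scaffold bound by S100A10 with annexin A2, VIL2 (0.32 ± 0.07), which encodes ezrin, the partner of S100P, ANXA11 (0.49 ± 0.14), which binds S100A6, and SUGT1 (0.42 ± 0.15), a chaperone adaptor that also binds S100A6. Both other AHNAK probes rose by more, 1.61 ± 0.19 and 1.74 ± 0.11. Of the other ANXA11 probes, 1 rose by 0.55 ± 0.16 and a dimmer one had no linear trend (0.28 ± 0.18, adjusted p = 0.219 in limma). Dependence of SUGT1 on time in any smooth form did not pass (adjusted p = 0.0912 in limma). ANXA2 had no trend (-0.01 ± 0.04, adjusted p = 0.874), and its brightest probe read up to 99.2% of the brightest signal. Its dimmer probes, which read up to 35.7% and 6.06%, had no linear trend either (-0.22 and -0.13, adjusted p = 0.141 and 0.301 in limma). MDM2 was not tested.

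Of 8 listed receptors of released S100 proteins 6 were tested, 4 rose and 1 fell, beside 27.0% and 22.0% of all genes. Their median linear change was 0.55 log2 units against 0.06 over all genes. ALCAM, an adhesion molecule of the immunoglobulin family that binds S100B, rose by 1.77 ± 0.11 (SE, n = 16, adjusted p = 3.76e-10 in limma), from 13.15 at 0 h to 14.43 at 45 h, and was highest at 15.28 in between. CD36, a scavenger receptor for the complex of S100A8 and S100A9 with arachidonic acid, rose by 1.47 ± 0.35 and NPTN, a receptor of S100A8, by 0.29 ± 0.08. AGER, which encodes RAGE, rose by 0.80 ± 0.29 (adjusted p = 0.0263) but was detected on only 5 of 16 arrays. Its dependence on time in any smooth form did not pass (adjusted p = 0.0886 in limma). BSG, which encodes basigin, a receptor of S100A9, fell by 0.61 ± 0.17. TLR4 was detected on 0 arrays and MCAM on 1, and neither was tested. None of the 6 passed with the block as a factor, with adjusted p-values from 0.152 to 0.952.

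**Figure D5:**
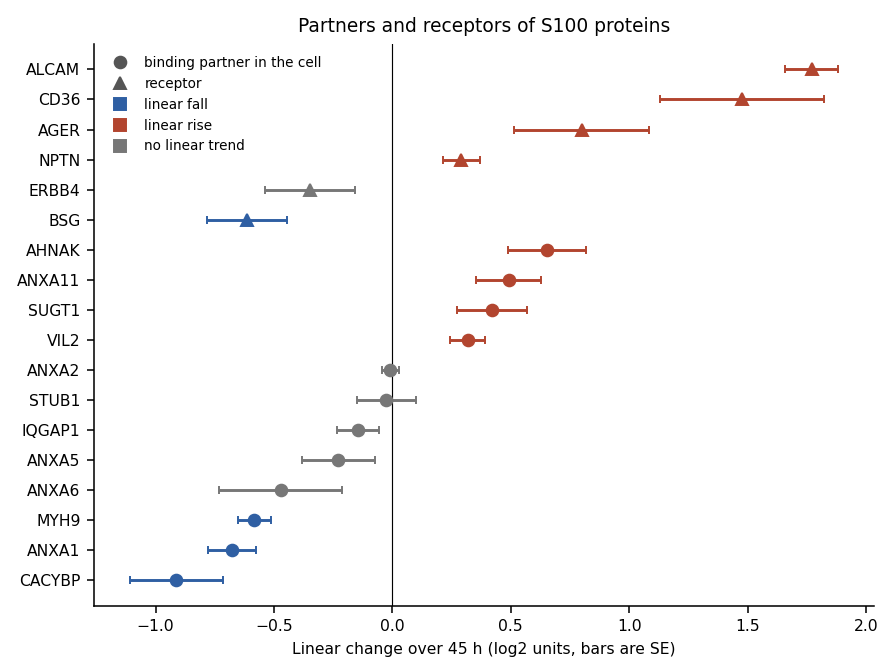
Linear change over 45 h in log2 units (horizontal axis, bars are SE) of the brightest probe of each tested binding partner (circles) and receptor (triangles) of S100 proteins. ALCAM (1.77) and CD36 (1.47) lie farthest to the right and CACYBP (-0.91) farthest to the left.

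The epidermal differentiation complex lies beside most S100 genes on chromosome 1. Of 20 listed genes of this complex and of cornification, 14 were tested, 2 rose and 8 fell, beside 27.0% and 22.0% of all genes. The median linear change was -0.58 log2 units in the list against 0.06 over all genes. The 6 that were not tested, LOR, FLG, HRNR, LCE1B, LCE2B and PGLYRP3, were detected on 0 arrays. IVL was tested and had no linear trend (adjusted p = 0.361 in limma). The largest fall was that of SPRR2D, a small proline-rich protein of the cornified envelope, with -4.84 ± 0.33 (SE, n = 16, adjusted p = 7.57e-10 in limma), from a log2 signal of 10.73 at 0 h to 6.21 at 45 h, with detection on 15 of 16 arrays. The largest rise was that of CSTA, the protease inhibitor cystatin A, with 1.14 ± 0.15 (adjusted p = 5.27e-06). With the block as a factor the adjusted p-values of the 14 in limma ran from 0.0700 to 0.956, with 0.0976 for SPRR2D and 0.245 for CSTA. The genes whose log2 course over the 16 arrays was most like that of S100A9 were KRT6A (r = 0.977), IMPDH2 (r = 0.971) and KRT16 (r = 0.970). KRT6A and KRT16 are the keratins of activated keratinocytes, and their linear changes were -2.54 ± 0.08 and -1.66 ± 0.13. For S100A7 they were H2AFJ (r = 0.938), ACOX3 (r = 0.937) and SERPINB2 (r = 0.932), with linear changes of 0.75 ± 0.07, 0.94 ± 0.11 and 1.09 ± 0.17. These likenesses describe arrays that all genes share and were chosen as the highest of the table, so they carry no test.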

How the data were processed

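Samples were grouped by the time in their labels, with 1 array per time point. The deposited table gives for each probe a linear signal intensity, which the authors had neither background-corrected nor normalized, and the deposited detection p-value. Ref8v2 is the Illumina array that the study's methods name for time courses, while the labels leave the array version out, and neither scanning software nor genome build was given in the sources used here. Signals were corrected by normexp with negative controls inferred from the detection p-values, with an offset of 16, quantile normalized and taken to log2 (neqc, limma 3.58.1, R 4.3.3). A cubic polynomial in hours was fitted (lmFit, eBayes with an intensity trend) to every probe whose detection p was below 0.05 on 3 or more arrays. Two-sided tests of the linear term, of all 3 terms and of the 2 curved terms received Benjamini-Hochberg adjustment over these 16110 probes, with 0.05 as the threshold. The linear change is the linear term over 45 h, beside the step or the block where one was entered. The fit was tested on simulated data. A probe was called near the top where it reached 80% of the brightest signal of its array or the 25 brightest probes. Gene lists used the brightest probe of each gene. The partner list and its counts omit 1 gene, which is not reported here. Genes named were all members, the largest rise and fall of each list, the partners and receptors past the threshold, and the 3 genes most correlated with the members of largest rise and fall, with others chosen after their values were seen. The members and lists were chosen with earlier results of these data known. Alternatives were other corrections, offsets, normalizations, filters, array weights, a step at 24 h, the block of arrays as a factor, and each array left out. Python 3.11.15 was used for the promoter search and, with matplotlib 3.10.9, for the figures.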

Additional observations from a re-analysis of the deposited data

How the results depend on the processing

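The linear change of each S100 probe was computed again 275 times under the alternatives. In 245 of these the sign and the side of the threshold stayed, in 19 the value no longer passed, and in 11 the sign turned. In 8 of the 11 neither value passed: S100A6 gave -0.10 with median scaling, -0.04 with array weights, -0.01 with a step at 24 h and -0.01 without the 45 h array, S100P gave -0.07 with median scaling and -0.0007 without the 45 h array, and the S100A4 probes gave -0.28 and -0.56 with the block of 4 arrays as a factor. The other 3 turns came with a step between 21 and 24 h as a further term: S100A4 then gave -1.75 (ILMN_1684306, adjusted p = 1.88e-04 in limma) and -1.94 (ILMN_1688780, adjusted p = 0.00156), and S100A14 gave 0.11 (adjusted p = 0.789). The cause was not tested, though the step term takes up the rise of S100A4 at 24 h. With that term S100A7 (0.64, adjusted p = 0.140) and S100A11 (0.39, adjusted p = 0.116) did not pass, and S100A9 (-1.24), S100A8 (-1.41) and S100A2 (-1.27) did. Of 176 values with 1 array left out, 169 kept sign and side, 5 were S100A10 values that no longer passed, and 2 were the S100A6 and S100P turns without 45 h. The count of probes with a linear trend was 7 and became 0 with the block of 4 arrays as a factor. The count departing from a straight line was 4, became 2 with no filter on detection and 2 with the step term, and lay between 1 and 5 with 1 array left out, with 1 without the 12, 15 or 45 h array. The count of probe pairs that differed with time was 681, became 1193 with no background correction, where the S100A4 pair had an adjusted p of 0.00400, and lay between 489 and 716 with 1 array left out, an alternative chosen after seeing the data. No paired analysis was possible because the labels number every sample as the only replicate of its time. Probes near the top of the range limit what S100P, S100A6, S100A10 and the early values of S100A9 can show.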

Other observations

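Of 23 listed genes for calcium-binding proteins with EF-hands outside the S100 family, 17 were tested, 5 rose and 5 fell, beside 27.0% and 22.0% of all genes tested, with a median linear change of -0.10 log2 units, and 13 of the 17 depended on time, beside 52.8%. These shares were not compared by a test. The largest rise was that of CALML5, the calmodulin-like protein of stratified epithelium, with 1.23 ± 0.13 log2 units over 45 h (SE, n = 16 arrays, adjusted p = 1.52e-07 in limma), from 14.40 at 0 h to 15.32 at 45 h. CALB2, which encodes the calcium buffer calretinin, had the largest fall, with -1.24 ± 0.16 (adjusted p = 3.47e-06). Its log2 signal went from 12.77 to 11.95, with a highest value of 13.58 in between. A dimmer CALB2 probe had no linear trend (-0.34 ± 0.17, adjusted p = 0.121 in limma). With the block of 4 consecutive arrays as a factor the adjusted p-values of these 17 brightest probes in limma ran from 0.302 to 0.984. They were 0.606 for CALML5 (0.49) and 0.836 for CALB2 (-0.25). A dimmer probe of SRI, another listed gene, passed with the factor (1.85, adjusted p = 0.0381 in limma).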
